A study of Mus musculus with 18 samples.

Results

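Collagen genes are the protein-chain genes of the collagen family, each named by its type and its chain. They were taken as every gene whose symbol has the form Col, a number, the letter a and a number, and 38 such genes were listed, of 14068 genes in at least 1 of 3 deposited tables of mouse choroid, retina and brain. The choroid table listed 31 collagen genes, that of retina 27 and that of brain 26. All 3 tables shared 16 of them, 14 stood in exactly 2 tables and 8 in 1.

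Collagens are secreted or membrane proteins whose 3 chains wind into a triple helix. Type IV collagen forms the sheet that underlies every vessel wall, where Col4a1 and Col4a2 chains join in the same trimer. Fibrillar collagens such as types I, III and V build the fibers of connective tissue and are made mainly by fibroblasts, and the other classes decorate fibers, anchor cells or form finer networks. In the eye, collagens of the retinal pigment epithelium and choroidal endothelium contribute to Bruch's membrane, the sheet between the photoreceptor support layer and the choroidal vessels.

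All 18 libraries came from mice of the genotype Tie2-cre+; NuTRAP+, with no treatment group. NuTRAP is a reporter that, after Cre recombination, puts a green fluorescent tag on ribosomes, and the Tie2 promoter drives Cre in endothelial cells and also in part of the blood lineage. Each tissue gave 3 input libraries, which are RNA of the whole lysate, and 3 positive libraries, which are RNA pulled down with the tagged ribosomes by an anti-GFP antibody. The choroid samples hold scraped retinal pigment epithelium and choroid of 2 eyes, the retina samples pool 2 retinas, and each brain sample is 0.5 of a brain. The libraries carry the numbers 421, 953 and 960 in every group, and values in 3 libraries are given below in that order. The sources used here give neither age nor sex, nor do they say whether the numbers mark single mice, so the p-values measure the spread between these samples.

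Library totals are sums over the genes listed for the tissue. They ranged from 8807306 to 14484068 counts in choroid input, from 2649095 to 4587921 in choroid positive, from 15243098 to 21521130 in retina input, from 6260958 to 11071373 in retina positive, from 9596740 to 32064355 in brain input and from 18618427 to 28277853 in brain positive. Of 8 endothelial marker genes, 8 were higher in the positive libraries of each tissue, and so were 5 of 6 leukocyte genes in choroid, 5 of the 5 listed in retina and 6 of 6 in brain. Some libraries stood apart from their group. Both choroid libraries numbered 421 had more oligodendrocyte transcript than the others, with a summed level over 3 marker genes of 5063 CPM in input against 301.6 and 408.5. The retina positive library 421 had a summed mural (pericyte and smooth muscle) level of 423.4 against 44.23 and 24.79, and the brain input library 960 had the highest endothelial sum of its group, 153.7 against 91.64 and 91.15. Without both choroid 421 libraries, 4 collagen genes were called higher and 17 lower in choroid, and without brain input 960, 7 were higher and 15 lower in brain, against the counts of all libraries given below.

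A gene entered a table only where every library of at least 1 fraction had a raw value of 50 or more. In choroid, 15 collagen genes met this in both fractions and 16 in the input only. In retina, 24 met it in both, 2 in the input only and 1 in the positive libraries only, and in brain 17, 1 and 8. Genes that entered through 1 fraction were the more likely to be high there, so the numbers of calls below describe the listed genes and not the whole family. The minimum applies to raw values, so entry also depends on library totals, which were lowest in choroid positive libraries. Of the brain inputs, library 960 had the lowest total. Col1a1 had 404, 313 and 45 counts in brain input and 100, 62 and 105 in positive, and entered through the positive libraries. Of the 16 that entered choroid through the input, 0 were called higher and 10 lower, and of the 8 that entered brain through the positive libraries, 3 were higher and 1 lower. The 16 were Col2a1, Col4a4, Col4a5, Col4a6, Col5a1, Col5a3, Col6a1, Col6a2, Col6a3, Col9a1, Col9a2, Col11a1, Col12a1, Col14a1, Col20a1 and Col27a1. For them the listing favours a lower value in choroid, so their choroid differences below are descriptions.

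Levels are CPM, the count of a gene in proportion to a library scaled to a common size within a tissue, and a difference is the log2 of positive over input with its standard error (SE), also written after ± in log2 differences. Where values of input and positive libraries follow each other, those of input come first. The words higher and lower are used as calls, for genes where the adjusted p of the edgeR quasi-likelihood test, taken over all genes of the table, was under 0.05. In choroid, 4 of 31 collagen genes were called higher in the positive libraries and 18 lower, where 21.1% and 20.9% of all 11718 genes tested were. In retina the counts were 15 higher and 1 lower of 27, against 18% and 13.7% of 12369 genes, and in brain 7 higher and 11 lower of 26, against 21.2% and 18.3% of 12919 genes. The collagen genes had a median log2 difference of -1.47 in choroid, 1.27 in retina and -0.84 in brain, where the medians over all genes were -0.03, -0.01 and -0.07. Input and positive libraries did not overlap for 24 of 31 collagen genes of choroid, 15 of 27 of retina and 21 of 26 of brain, where 42.0%, 31.7% and 39.5% of all genes were called in either direction. Over all genes tested, 55.0%, 50.0% and 55.3% had no overlap by the same measure, so the retina count of collagen genes was near the background. With the replicate number as a block, 5 collagen genes were higher and 24 lower in choroid, 16 and 2 in retina and 6 and 9 in brain. Positive and input values in bulk tissue cannot tell fewer cells of a type from less RNA per cell.

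**Figure D1:**
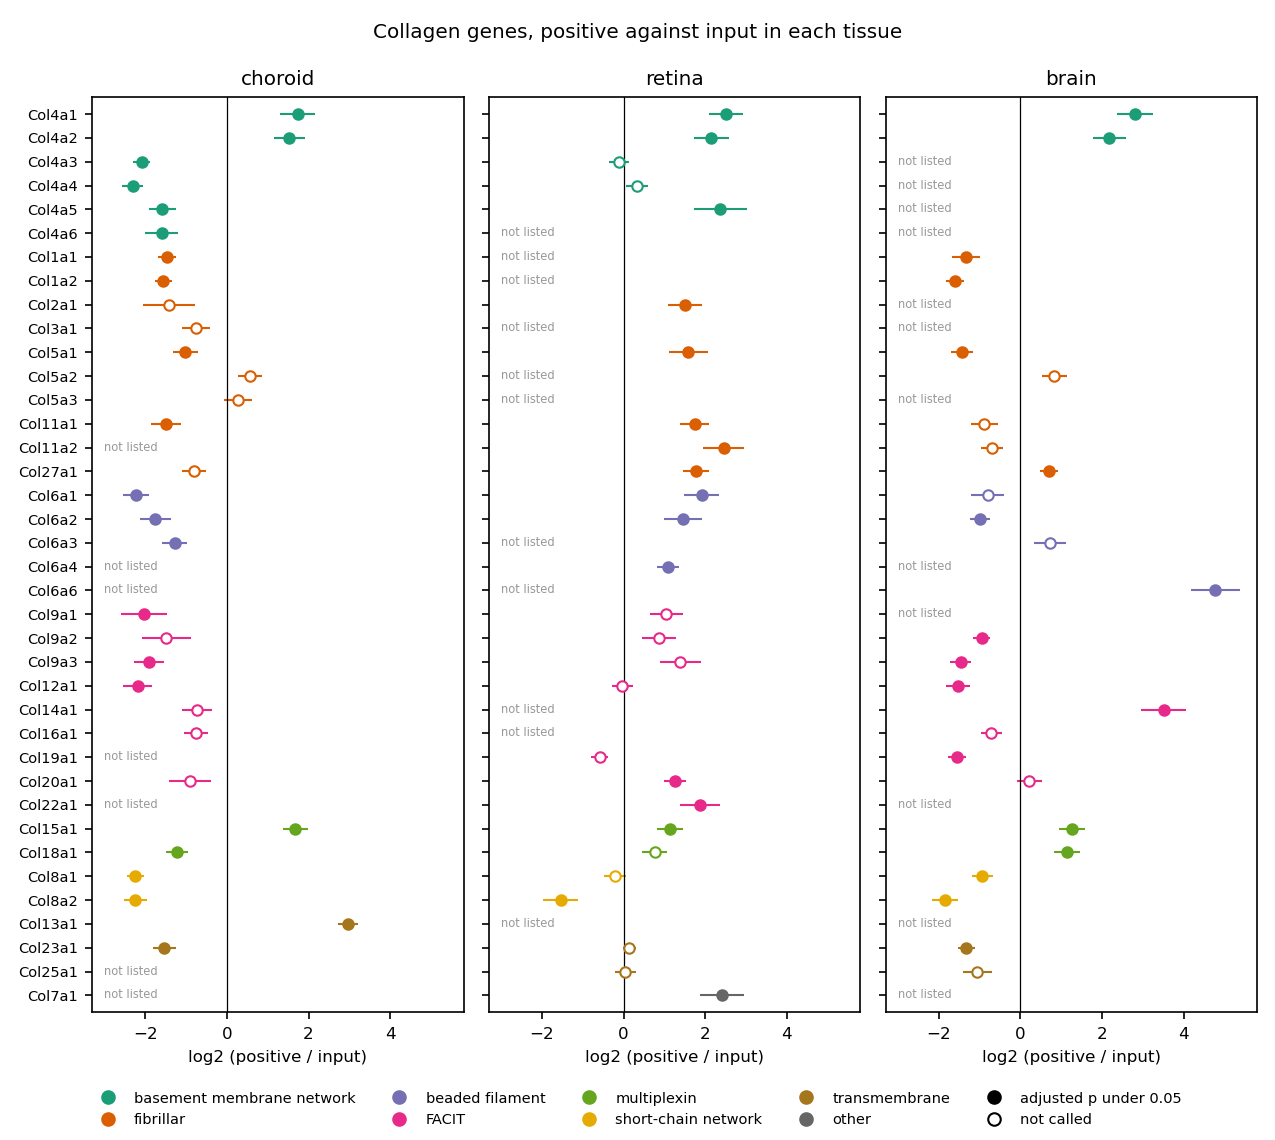
Log2 difference of positive over input (x axis) for each of the 38 collagen genes (y axis, grouped by structural class) in choroid, retina and brain. Points are edgeR estimates with 1 SE, and filled points have an adjusted p under 0.05. Col4a1, Col4a2 and Col15a1 lie to the right of 0 in all 3 tissues and Col8a2 to the left, while most other genes lie left of 0 in choroid and right of it in retina.

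Among the 16 genes in all 3 tables, 3 were called higher in every tissue (Col4a1, Col4a2 and Col15a1) and 1 lower in every tissue (Col8a2). How many of all genes had the same call in every tissue was not counted, so these counts do not set the collagen genes apart. Col15a1 entered the brain table through positive libraries only and Col8a2 the retina and brain tables through input only. Such entry favours the direction of those calls. The calls of the other 12 differed. Col5a1 and Col6a2 were lower in choroid, higher in retina and lower in brain, and Col6a1 and Col11a1 were lower in choroid and higher in retina with no call in brain. All of these genes entered the choroid table through input only, which favours a lower value there. Col18a1 was lower in choroid and higher in brain. Col8a1, Col9a3, Col12a1 and Col23a1 were lower in choroid and brain and had no call in retina. Of these, Col12a1 entered the choroid table through input only. Col9a3 was called higher in retina without positive 960 (log2 difference 1.86, adjusted p = 0.00271). Calls in 1 tissue and none in another do not show that tissues differ, and the tests of the differences follow further on.

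Among the basement membrane network collagens, Col4a1 and Col4a2 encode both chains of the main type IV collagen of vessel walls. Both were higher in the positive libraries of all 3 tissues. In choroid, Col4a1 was at 155, 63.7 and 76.0 CPM in the input libraries and 510.1, 198 and 266 CPM in the positive libraries (log2 difference 1.73, SE 0.43, adjusted p = 0.0128). In retina, it was at 30.6, 27.7 and 31.7 CPM in the input libraries and 307, 126 and 81.1 CPM in the positive libraries (log2 difference 2.51, SE 0.42, adjusted p = 0.00291). In brain, it was at 28.0, 32.3 and 10.8 CPM in the input libraries and 166, 221 and 120.3 CPM in the positive libraries (log2 difference 2.82, SE 0.44, adjusted p = 0.0028). In each tissue all 3 positive libraries exceeded all 3 input libraries. The spread between replicates was wide: choroid 421 was the highest in both fractions, and retina positive 421 was over those of 953 and 960.

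Col4a2 was likewise higher in all 3 tissues. In choroid it was at 97.2, 52.1 and 52.7 CPM in the input libraries and 298, 112 and 174 CPM in the positive libraries (log2 difference 1.53, SE 0.38, adjusted p = 0.0129), in retina at 28.2, 28.2 and 31.8 and 241, 84.8 and 65.7 CPM (log2 difference 2.15, SE 0.43, adjusted p = 0.00678), and in brain at 29.4, 30.8 and 11.5 and 104, 142 and 80.8 CPM (log2 difference 2.18, SE 0.40, adjusted p = 0.00574), input first. No input library reached the lowest positive one of its tissue. Single libraries bear on these values. Without the choroid input library 953 both choroid calls were lost, with adjusted p of 0.0512 for Col4a1 and 0.0554 for Col4a2. Without the retina positive library 421 the retina log2 difference was 1.78 for Col4a1 (adjusted p = 5.01e-05) and 1.35 for Col4a2 (adjusted p = 5.41e-05). Per kilobase of exon, the level of Col4a1 over that of Col4a2 was 0.847, 0.931 and 0.837 in brain input and 1.41, 1.38 and 1.32 in brain positive. In retina it was 0.961, 0.871 and 0.885 in input and 1.13, 1.32 and 1.10 in positive, and the choroid ranges overlapped, at 1.08 to 1.42 in input and 1.36 to 1.58 in positive. The ratio was thus higher in every positive library of brain and retina than in any input library there, with no test made of it.

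**Figure D2:**
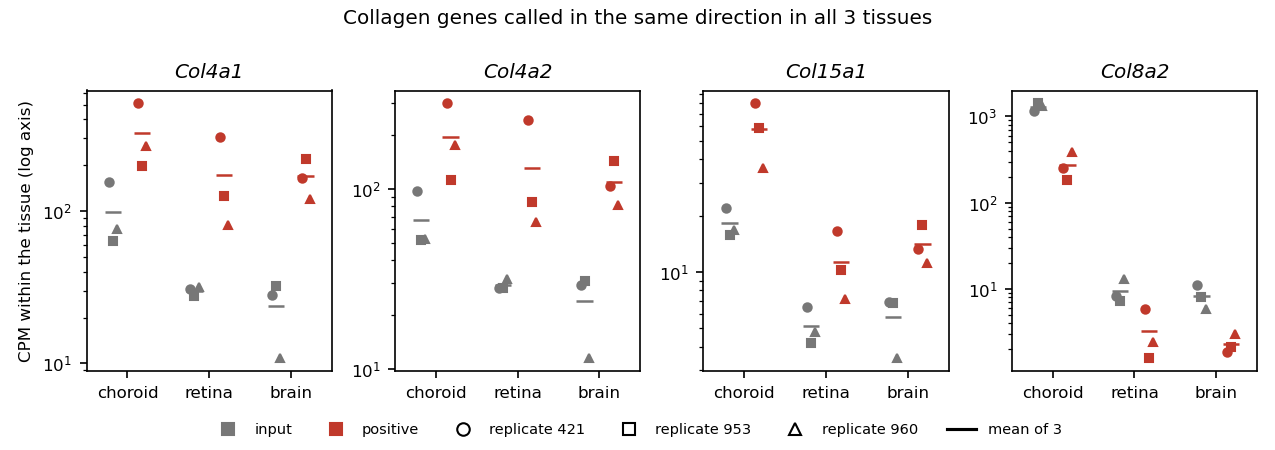
CPM within the tissue (y axis, log scale) of Col4a1, Col4a2, Col15a1 and Col8a2 in input (grey) and positive (red) libraries of choroid, retina and brain; marker shapes are the replicate numbers and bars the means of 3. The first 3 genes are higher in positive libraries in each tissue and Col8a2 is lower, with no overlap between fractions. Entry to the brain table favours this direction for Col15a1, and entry to the retina and brain tables for Col8a2.

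Col4a3, Col4a4, Col4a5 and Col4a6 encode the other type IV chains of more specialised basement membranes, such as that of the kidney glomerulus. All 4 were lower in choroid positive libraries. Col4a3 was at 110.1, 117 and 97.3 CPM in the input libraries and 25.6, 19.8 and 31.4 CPM in the positive libraries (log2 difference -2.09, SE 0.21, adjusted p = 0.000207). Col4a4 was at 99.0, 72.2 and 71.4 CPM in the input libraries and 20.0, 12.3 and 16.5 CPM in the positive libraries (log2 difference -2.31, SE 0.25, adjusted p = 0.00027). Positive libraries lay below input libraries without overlap for both, and the log2 differences of Col4a5 and Col4a6 were -1.58 ± 0.33 and -1.60 ± 0.41 (adjusted p = 0.00612 and 0.0145). In retina, Col4a3 was at 87.9, 64.0 and 52.9 CPM in input and 88.8, 51.2 and 50.0 CPM in positive, and Col4a4 at 36.4, 32.6 and 28.0 CPM and 57.4, 43.1 and 22.8 CPM. Neither passed the test there, with log2 differences of -0.11 ± 0.25 (adjusted p = 0.762) and 0.33 ± 0.28 (adjusted p = 0.394), and Col4a4 was called higher without positive 960 (adjusted p = 0.012). Col4a5 differed from them in retina, where it was higher in the positive libraries (log2 difference 2.37, SE 0.65, adjusted p = 0.0238), ranging from 5.62 to 7.48 CPM in input and from 8.80 to 72.3 in positive. That call was lost without any 1 of the 3 retina inputs or without positive 953 (adjusted p 0.0529 to 0.0857), and without positive 421 the log2 difference was 1.12 (adjusted p = 0.0238). In fits of choroid and retina alone, the positive-over-input difference was lower in choroid than in retina by log2 -1.90 for Col4a3 (SE 0.35, adjusted p = 0.00167). For Col4a4 and Col4a5 it was lower by -2.56 and -3.87, given as a description, because both entered the choroid table only through input libraries, which favours that direction. Col4a6 entered the choroid table the same way, which favours its lower value there.

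The type IV genes lie head to head in pairs in the mouse genome: Col4a1 and Col4a2 on chromosome 8 with 2 bases between their starts in the authors' deposited tables (GENCODE lets the pair overlap), Col4a3 and Col4a4 on chromosome 1 with 71, and Col4a5 and Col4a6 on chromosome X with 1342. Members of the Col4a1 and Col4a2 pair and of the Col4a3 and Col4a4 pair had the same call in each tissue that listed them, while Col4a5 and Col4a6 could be compared in choroid only. Col4a3 and Col4a4 had no call in retina, where their log2 differences were of opposite sign. In choroid both were lower, and Col4a4 entered there through input only. The interval shared by Col4a3 and Col4a4 is shown because both genes were lower in choroid. Its label names the genes in order of position, while the bases read from the Col4a3 start toward the Col4a4 start (GRCm38.p6, chr1:82586850-82586920, minus strand, between the listed starts of both genes and in no GENCODE exon):
Col4a4 to Col4a3: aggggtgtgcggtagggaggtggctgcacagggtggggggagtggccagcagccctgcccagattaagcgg
It held none of 3 core promoter motifs searched on both strands, which were the GC box (GGGCGG), the box known by its letters as CCAAT, and a form of the TATA box (TATAAA). No motif contains another, and a match is only a match of letters. Over the 250 bases before the start of each of 27025 mouse genes in the RefSeq promoter table, 32.9% held GGGCGG, 34.5% CCAAT and 13.0% TATAAA. Of the 38 collagen genes 30 had such a window, and 20 of the 30 held GGGCGG, 11 CCAAT and 3 TATAAA.

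The multiplexins Col15a1 and Col18a1 encode types XV and XVIII collagen, proteoglycans of basement membranes whose ends can be released as endostatin-like fragments. Col15a1 was higher in the positive libraries of each tissue. In choroid it was at 22.1, 15.9 and 16.8 CPM in the input libraries and 79.9, 58.6 and 36.0 CPM in the positive libraries (log2 difference 1.68, SE 0.30, adjusted p = 0.003). In retina it was at 6.50, 4.20 and 4.77 CPM in input and 16.6, 10.3 and 7.19 CPM in positive (log2 difference 1.13, SE 0.32, adjusted p = 0.0287), and in brain at 6.92, 6.81 and 3.47 CPM and 13.3, 17.8 and 11.2 CPM (log2 difference 1.27, SE 0.31, adjusted p = 0.0182). No input library overlapped the positive ones. The retina call was lost without input 953 or 960 or positive 421 or 953 (adjusted p 0.0578 to 0.107), and the brain call without positive 421 or 953 (adjusted p 0.0559 to 0.0735). Col15a1 entered the brain table through its positive libraries, which favours a higher value there. Its upstream window is shown as that of the gene that was higher in every tissue and shares no start region with another collagen (GRCm38.p6, chr4:47207762-47208011, plus strand, in no GENCODE exon):
Col15a1: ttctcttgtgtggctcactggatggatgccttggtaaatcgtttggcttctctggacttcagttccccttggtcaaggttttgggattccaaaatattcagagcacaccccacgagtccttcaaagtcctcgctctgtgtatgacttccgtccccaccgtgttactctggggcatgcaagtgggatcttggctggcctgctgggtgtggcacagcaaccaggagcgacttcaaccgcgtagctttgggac
None of the 3 motifs was found in it.

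Col18a1 had calls in opposite directions. In choroid it was at 534, 596 and 336 CPM in the input libraries and 271, 166 and 189 CPM in the positive libraries (log2 difference -1.22, SE 0.27, adjusted p = 0.00796). In brain it was at 20.5, 18.6 and 8.34 CPM in the input libraries and 34.1, 39.6 and 32.7 CPM in the positive libraries (log2 difference 1.15, SE 0.32, adjusted p = 0.0282). In retina the values were 27.6, 31.5 and 44.4 CPM in input and 89.1, 50.6 and 37.3 CPM in positive, with overlap (log2 difference 0.76, SE 0.31, adjusted p = 0.086), and a higher call appeared without positive 960 (adjusted p = 0.0127). The brain call was lost without any 1 of the 3 brain positive libraries (adjusted p 0.0676 to 0.1). The difference between tissues was itself called: choroid minus brain -2.19 ± 0.48 (adjusted p = 0.00324) and choroid minus retina -1.96 ± 0.48 (adjusted p = 0.00584) on the log2 scale. Col18a1 was among the 4 collagen genes with the highest level per kilobase in choroid input, at 69.6 ± 19.3 CPM per kilobase (SD, n = 3), a level that stood beside a high summed level of retinal pigment epithelium markers, 13410 to 21740 CPM over 6 genes in choroid input and 3385 to 7452 in choroid positive. The part of that tissue layer in the Col18a1 difference was not tested.

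The transmembrane collagens Col13a1, Col23a1 and Col25a1 encode chains that cross the cell membrane and contribute to cell adhesion. Col13a1 was listed in choroid only and had the largest positive log2 difference of the choroid collagens. It was at 9.45, 7.52 and 6.97 CPM in the input libraries and 78.3, 60.2 and 49.2 CPM in the positive libraries (log2 difference 2.97, SE 0.25, adjusted p = 0.000134), and the call held without any 1 library. Col23a1 was lower in choroid, at 142, 132 and 73.5 CPM in the input libraries and 46.3, 44.8 and 28.4 CPM in the positive libraries (log2 difference -1.53, SE 0.29, adjusted p = 0.00399). In brain it was at 13.3, 14.2 and 12.9 CPM in input and 4.79, 4.79 and 6.62 CPM in positive (log2 difference -1.32, SE 0.20, adjusted p = 0.00268). In retina, where Col23a1 had the highest input level per kilobase of all listed collagens (13.1 ± 0.0374 CPM per kilobase, SD, n = 3), it was at 75.2, 74.8 and 74.8 and 105, 77.0 and 66.4 CPM and did not pass (log2 difference 0.14, SE 0.16, adjusted p = 0.529). Col25a1 was at 11.6, 11.3 and 15.8 and 17.3, 13.9 and 8.98 CPM in retina and at 48.2, 43.1 and 19.8 and 18.3, 13.8 and 22.0 CPM in brain, with fractions that overlapped in both tissues (adjusted p = 0.92 and 0.0516). A lower call in brain appeared without input 960 (adjusted p = 0.000498), with DESeq2 (adjusted p = 0.0116) and with the RLE size factors in edgeR (adjusted p = 0.0443). The window before Col13a1 is shown as the one of these 3 genes that was higher in positive libraries (GRCm38.p6, chr10:61979109-61979358, minus strand, in no GENCODE exon), with its match to TATAAA in capitals:
Col13a1: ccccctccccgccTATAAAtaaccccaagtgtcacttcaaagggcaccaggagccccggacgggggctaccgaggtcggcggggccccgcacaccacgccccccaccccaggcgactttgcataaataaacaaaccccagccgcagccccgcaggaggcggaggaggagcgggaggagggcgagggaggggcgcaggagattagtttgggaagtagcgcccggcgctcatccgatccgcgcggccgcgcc
A TATAAA match was found before 2 other collagen genes, Col3a1 and Col11a2.

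Of the 9 fibrillar genes listed in choroid, 0 were called higher by edgeR (0 at an unadjusted p under 0.05, and 0 with DESeq2) and 4 lower. In retina 5 of 5 were higher, and in brain 1 of 7 was higher and 3 lower. The shares of all genes called are those given above, 21.1% higher and 20.9% lower in choroid, 18% and 13.7% in retina and 21.2% and 18.3% in brain, and 1 of 7 is near that share. Col1a1 and Col1a2, the chains of type I collagen, were listed in choroid and brain and not in the retina table. In choroid, Col1a2 was at 369, 277 and 278 CPM in the input libraries and 110.3, 122 and 80.5 CPM in the positive libraries (log2 difference -1.56, SE 0.21, adjusted p = 0.000794). Col1a1 there was at 233, 148 and 162 CPM in input and 80.8, 54.6 and 59.8 CPM in positive (log2 difference -1.47, SE 0.23, adjusted p = 0.0016). In brain, Col1a2 was at 27.7, 23.6 and 20.4 CPM in input and 6.98, 6.57 and 10.1 CPM in positive (log2 difference -1.60, SE 0.23, adjusted p = 0.00206), and Col1a1 at 12.1, 11.2 and 4.88 CPM and 3.60, 3.45 and 4.29 CPM (log2 difference -1.33, SE 0.35, adjusted p = 0.0231). All positive libraries lay below all input libraries for both genes in both tissues. The brain call for Col1a1 was lost without input 421 or 953 or without any 1 positive library (adjusted p 0.0595 to 0.0886), and with the replicate number as a block (adjusted p = 0.0668). Fibroblast markers other than collagens moved with these genes: 7 of 9 were lower in choroid positive libraries, with summed levels of 1784 to 2325 CPM in input and 584.9 to 951.1 in positive, and 5 of the 5 listed were lower in brain, with sums of 117.6 to 142.3 and 31.3 to 46.92. Their part in the result was not tested. In retina 2 of 9 fibroblast markers were listed.

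A stretch before Col1a2 is shown as that of a chain lower in both tissues that listed it, with matches to GGGCGG in capitals (GRCm38.p6, chr6:4505370-4505492, plus strand, between 2 GENCODE exons of Col1a2):
Col1a2: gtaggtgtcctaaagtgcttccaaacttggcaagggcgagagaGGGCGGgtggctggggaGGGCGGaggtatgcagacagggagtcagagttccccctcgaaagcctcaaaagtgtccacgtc

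Col3a1, the fiber chain that accompanies type I, was listed in choroid only, at 151, 109.8 and 97.0 CPM in the input libraries and 69.0, 106 and 36.0 CPM in the positive libraries, with overlap. It did not pass the test (log2 difference -0.76, SE 0.35, adjusted p = 0.111) but was called lower with the replicate number as a block (adjusted p = 0.00776) and without positive 953 (adjusted p = 0.0341). Col2a1, the main collagen of cartilage and vitreous, was in retina at 53.3, 49.7 and 47.6 CPM in the input libraries and 259, 103 and 64.9 CPM in the positive libraries (log2 difference 1.50, SE 0.42, adjusted p = 0.0271). Without positive 421 its log2 difference was 0.73 (adjusted p = 0.0094), and its call was lost without any 1 input or without positive 953 (adjusted p 0.0583 to 0.0919). In choroid, Col2a1 was at 19.3, 45.1 and 8.02 CPM in input and 6.35, 15.1 and 5.51 CPM in positive, with overlap (log2 difference -1.41, SE 0.64, adjusted p = 0.106), and a lower call appeared with the block (adjusted p = 0.00189), with DESeq2 (adjusted p = 0.0483) and without input 960 (adjusted p = 0.0237). In choroid the libraries numbered 953 were the highest in both fractions for this gene.

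The remaining fibrillar chains split by tissue. Col5a1, Col11a1, Col11a2 and Col27a1 had log2 differences in retina of 1.59 ± 0.48, 1.74 ± 0.36, 2.45 ± 0.51 and 1.77 ± 0.32 (adjusted p = 0.0347, 0.00797, 0.00806 and 0.00397), all higher in positive libraries. In choroid, Col5a1 and Col11a1 were lower, by log2 -1.02 ± 0.31 and -1.49 ± 0.37 (adjusted p = 0.0283 and 0.0127). Both, and also Col27a1, entered the choroid table through input only, which favours a lower value there. In brain, Col5a1 was lower (-1.43 ± 0.27, adjusted p = 0.00655), Col27a1 was higher (0.70 ± 0.22, adjusted p = 0.0453), and Col11a1 and Col11a2 had values of -0.88 ± 0.33 and -0.69 ± 0.27 with no call, which both gained one without input 960 (adjusted p = 0.00275 and 0.00672). The call for Col5a1 in choroid was lost without input 421 or 953 or positive 421 or 960 (adjusted p 0.0691 to 0.0901), and without both 421 libraries (adjusted p = 0.136). In retina it was lost without any 1 input or without positive 421 or 953 (adjusted p 0.0762 to 0.105), with a log2 difference of 0.86 without positive 421. Without retina positive 421 the log2 difference of Col11a2 was 1.66 (adjusted p = 0.00447). That of Col27a1 in brain lost its call without input 421 or 953 or any 1 positive library (adjusted p 0.0754 to 0.196) and with the block (adjusted p = 0.0507), while in choroid Col27a1 was called lower only with the block (adjusted p = 0.0253) or with scaling to library size alone (adjusted p = 0.0252). Col5a2 had log2 differences of 0.57 ± 0.30 in choroid and 0.83 ± 0.31 in brain (adjusted p = 0.155 and 0.0696), with a higher call in choroid under the block (adjusted p = 0.0215) and in brain without positive 960 (adjusted p = 0.0329), and Col5a3 was at 0.27 ± 0.35 in choroid (adjusted p = 0.559).

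The beaded filament collagens include type VI. Type VI collagen forms fine beaded filaments around cells, and Col6a1 and Col6a2 encode chains of the same trimer. Col6a1, Col6a2 and Col6a3 entered the choroid table through input libraries only, which favours a lower value there. Col6a1 was lower in choroid positive libraries and higher in retina positive ones. In choroid it was at 77.5, 44.3 and 41.2 CPM in the input libraries and 14.5, 10.5 and 9.32 CPM in the positive libraries (log2 difference -2.23, SE 0.32, adjusted p = 0.000943). Retina levels were 34.6, 32.5 and 37.9 CPM in the input libraries and 233, 112 and 53.0 CPM in the positive libraries (log2 difference 1.92, SE 0.43, adjusted p = 0.0116). Fractions did not overlap in either tissue, whereas in brain the values of 24.3, 37.9 and 11.3 CPM in input and 13.2, 15.5 and 14.0 CPM in positive overlapped (log2 difference -0.80, SE 0.40, adjusted p = 0.152). There a lower call appeared without input 960 (adjusted p = 0.00142). Without retina positive 421 the retina log2 difference was 1.22 (adjusted p = 0.00548).

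Col6a2 had the same directions. It was at 64.4, 37.2 and 42.8 and 22.2, 9.57 and 10.2 CPM in choroid input and positive (log2 difference -1.75, SE 0.37, adjusted p = 0.00605), at 8.99, 6.07 and 6.64 and 35.7, 16.3 and 8.17 CPM in retina (log2 difference 1.46, SE 0.46, adjusted p = 0.0405) and at 12.7, 11.2 and 8.02 and 4.46, 5.24 and 6.62 CPM in brain (log2 difference -0.98, SE 0.25, adjusted p = 0.0215). The retina values of the fractions overlapped. Its retina call was lost without any 1 input or without positive 421 or 953 (adjusted p 0.0739 to 0.127; log2 difference 0.73 without positive 421), and its brain call without input 421 or 953 or positive 421 or 953 (adjusted p 0.0672 to 0.0911) or with the block (adjusted p = 0.0669). Per kilobase, the level of Col6a1 over that of Col6a2 was 2.13 ± 0.257 in choroid input, 9.44 ± 1.88 in retina input and 4.25 ± 1.96 in brain input (SD, n = 3). It was above 1 in every library of both fractions. This rests on lengths of 4380 bases for Col6a1 and 8326 for Col6a2, each joined over all annotated exons. In CPM alone, Col6a2 was above Col6a1 in choroid input 960 and choroid positive 421 and 960, and below it in every other library.

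Col6a3 was lower in choroid, at 47.1, 28.4 and 25.5 CPM in input and 14.8, 16.4 and 10.2 CPM in positive (log2 difference -1.28, SE 0.31, adjusted p = 0.0107). In brain it was at 5.31, 6.10 and 1.95 and 7.59, 8.69 and 6.58 CPM, without overlap but with no call (log2 difference 0.73, SE 0.39, adjusted p = 0.176). Col6a4 was listed in retina only and entered through its positive libraries, at 2.43, 4.06 and 3.91 CPM in input and 8.60, 8.24 and 5.84 CPM in positive (log2 difference 1.09, SE 0.27, adjusted p = 0.0162), a call lost without input 421 or positive 953 (adjusted p 0.0594 to 0.0613). Entry this way favours a higher value of Col6a4 in retina. Col6a6 was listed in brain only, also through its positive libraries. Its counts were 2 to 11 in the input libraries and 76 to 289 in the positive ones, the highest log2 difference of any collagen in the brain table (log2 difference 4.78, SE 0.60, adjusted p = 0.00115). A gene listed this way had to be high in the positive libraries, so this value is a description.

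The FACIT collagens have interrupted triple helices and bind to the surface of fibers. In choroid 0 of 7 were called higher by edgeR (0 at an unadjusted p under 0.05, and 0 with DESeq2) and 3 lower, in retina 2 of 7 were higher and 0 lower (1 lower at an unadjusted p under 0.05, and 1 with DESeq2), and in brain 1 of 7 was higher and 4 lower. The shares over all genes were 21.1% higher and 20.9% lower in choroid, 18% and 13.7% in retina and 21.2% and 18.3% in brain. With 7 genes, the counts of higher genes in retina and brain were near those shares. Col20a1 encodes a little-studied chain, and its retina levels were above those of the other tissues. Col20a1 in retina was at 23.0, 26.2 and 27.3 CPM in the input libraries and 87.2, 61.4 and 36.4 CPM in the positive libraries (log2 difference 1.27, SE 0.27, adjusted p = 0.00901). All 3 retina positive libraries exceeded the inputs. In choroid it was at 5.77, 5.64 and 6.44 CPM in input and 1.36, 6.17 and 2.12 CPM in positive (log2 difference -0.90, SE 0.51, adjusted p = 0.183), and in brain at 2.37, 3.53 and 1.95 and 2.45, 3.01 and 3.88 CPM (log2 difference 0.22, SE 0.31, adjusted p = 0.606). These fractions overlapped, and the choroid positive libraries held only 5 to 20 counts of Col20a1, which limits that comparison. Without choroid positive 953 a lower call appeared there (log2 difference -1.84, adjusted p = 0.0153), and the difference of choroid minus brain in enrichment went from -0.96 to -2.06 and was called lower (adjusted p = 0.0215).

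Col9a1, Col9a2 and Col9a3 encode the chains of type IX collagen, which coats type II fibers in cartilage and vitreous. Col9a3 was the second highest collagen per kilobase in choroid input, at 177 ± 47.5 CPM per kilobase (SD, n = 3), after Col8a2. In choroid it was at 472, 782 and 795 CPM in the input libraries and 110.3, 156 and 280.2 CPM in the positive libraries (log2 difference -1.91, SE 0.36, adjusted p = 0.00385). In brain it was at 24.1, 21.6 and 29.2 CPM in input and 7.95, 7.02 and 12.1 CPM in positive (log2 difference -1.46, SE 0.25, adjusted p = 0.00446). Its retina levels were 8.73, 9.11 and 12.5 and 50.7, 21.2 and 8.89 CPM with overlap (log2 difference 1.39, SE 0.51, adjusted p = 0.0675), and a higher call appeared without positive 960 (adjusted p = 0.00271). Col9a1 was at 47.8, 101 and 21.8 and 14.1, 19.8 and 7.21 CPM in choroid (log2 difference -2.03, SE 0.56, adjusted p = 0.0197), lost without input 953 or positive 960 (adjusted p 0.0651 to 0.0673), with a log2 difference of -1.35 without input 953. Col9a1 in retina was at 35.8, 30.0 and 37.1 and 126, 58.4 and 30.7 CPM (log2 difference 1.05, SE 0.41, adjusted p = 0.0819), with a higher call under the block (adjusted p = 0.0395) and without positive 960 (adjusted p = 0.00344). Choroid input 953 was far above the other inputs for Col9a1, so the choroid inputs themselves were spread. Col9a1 also entered the choroid table through input only, which favours a lower value there.

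Col9a2 was lower in brain (log2 difference -0.95, SE 0.21, adjusted p = 0.0121), a call lost without positive 421 or 953 (adjusted p 0.0532 to 0.0603). Its choroid difference was -1.48 ± 0.61 (adjusted p = 0.0822), called lower with the block (adjusted p = 0.000146) and without input 960 (adjusted p = 0.0248), and its retina difference was 0.86 ± 0.42 (adjusted p = 0.147), called higher without positive 960 (adjusted p = 0.017). Col12a1 was at 102, 56.2 and 58.3 and 22.5, 11.1 and 13.1 CPM in choroid (log2 difference -2.19, SE 0.35, adjusted p = 0.00156), at 19.2, 17.8 and 23.0 and 21.1, 26.5 and 12.0 CPM in retina (log2 difference -0.03, SE 0.26, adjusted p = 0.942) and at 11.6, 11.6 and 7.15 and 3.06, 4.62 and 2.94 CPM in brain (log2 difference -1.53, SE 0.29, adjusted p = 0.0066). It was thus lower in the choroid and brain positive libraries, and in retina its fractions overlapped. Col9a2 and Col12a1 entered the choroid table through input only, which favours a lower value there. Col16a1 was at 71.4, 37.0 and 45.3 and 35.6, 33.0 and 22.5 CPM in choroid (log2 difference -0.75, SE 0.29, adjusted p = 0.0703) and at 13.7, 17.9 and 18.4 and 7.16, 10.7 and 12.7 CPM in brain (log2 difference -0.71, SE 0.25, adjusted p = 0.0637). Neither passed, although no positive library of Col16a1 reached an input library in either tissue, and the block gave adjusted p of 0.0104 and 0.0392.

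The remaining FACIT genes were listed in fewer tables. Col14a1 entered the brain table through its positive libraries and was higher there, at 2 to 42 counts in input and 180 to 336 in positive (log2 difference 3.51, SE 0.54, adjusted p = 0.00284). Entry this way favours a higher value, so the brain difference of Col14a1 is a description. In choroid the difference of Col14a1 was -0.74 ± 0.37 (adjusted p = 0.14; 0.0359 with the block). Col19a1 was lower in brain (log2 difference -1.55, SE 0.22, adjusted p = 0.00209), and in retina it was at -0.58 ± 0.21 (adjusted p = 0.0611), called lower with the block (adjusted p = 0.0194) and without positive 421 (adjusted p = 0.0228). Col22a1 was listed in retina only (log2 difference 1.87, SE 0.50, adjusted p = 0.0231), with a log2 difference of 1.09 without positive 421 (adjusted p = 0.0394) and a call lost without any 1 input or positive 953 (adjusted p 0.0691 to 0.0798).

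The short-chain genes Col8a1 and Col8a2 encode type VIII collagen, a network-former known from the corneal Descemet membrane and from vessel walls. Both were highest in choroid, as the comparison of positive libraries further on shows. There Col8a2 was at 1144, 1420 and 1309 CPM in the input libraries and 250.1, 183 and 390.4 CPM in the positive libraries (log2 difference -2.24, SE 0.29, adjusted p = 0.000633). Col8a1 was at 788, 1114 and 1010 CPM in the input libraries and 179, 214 and 223 CPM in the positive libraries (log2 difference -2.24, SE 0.21, adjusted p = 0.000164). Every choroid positive library lay below every input library, and Col8a2 had the highest level per kilobase of all choroid collagens in both fractions, 288 ± 31.0 in input and 61.1 ± 23.6 in positive (CPM per kilobase, SD, n = 3). In retina, Col8a2 was at 8.34, 7.19 and 13.0 CPM in input and 5.93, 1.58 and 2.42 CPM in positive (log2 difference -1.54, SE 0.43, adjusted p = 0.0259). In brain it was at 11.2, 8.06 and 5.85 and 1.87, 2.12 and 3.02 CPM (log2 difference -1.85, SE 0.32, adjusted p = 0.00461). It was lower in positive libraries with no overlap in each tissue. Col8a2 entered the retina and brain tables through input only, which favours a lower value there. Without retina positive 421 the retina log2 difference was -2.18 (adjusted p = 0.00192), and the retina call was lost without input 421 or 960 or positive 953 or 960 (adjusted p 0.0566 to 0.102). Col8a1 was at 6.24, 6.07 and 10.7 and 7.56, 6.50 and 5.84 CPM in retina (log2 difference -0.22, SE 0.27, adjusted p = 0.564) and at 5.67, 6.06 and 9.64 and 3.60, 3.84 and 3.60 CPM in brain (log2 difference -0.93, SE 0.26, adjusted p = 0.0283). The brain call was lost without any 1 positive library (adjusted p 0.085 to 0.0999) and with the block (adjusted p = 0.0573). Retinal pigment epithelium markers moved with type VIII in choroid, where 6 of 6 listed were lower in positive libraries, as were 5 of 5 melanocyte markers. The part of these cells was not tested.

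The window before Col8a2 is shown as that of the gene lower in all tissues, with GGGCGG matches of either strand in capitals (GRCm38.p6, chr4:126286544-126286792, plus strand, in no GENCODE exon):
Col8a2: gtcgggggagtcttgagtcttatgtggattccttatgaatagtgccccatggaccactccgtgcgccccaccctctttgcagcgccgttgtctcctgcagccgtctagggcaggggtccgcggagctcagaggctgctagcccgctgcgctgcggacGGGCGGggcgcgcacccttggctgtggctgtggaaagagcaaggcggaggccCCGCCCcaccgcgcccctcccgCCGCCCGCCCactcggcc
It held 4 matches to GGGCGG, 2 of them overlapping as one run, and no CCAAT or TATAAA.

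Col7a1 encodes the collagen of anchoring fibrils, known from skin. It was listed in retina only, at 23.9, 19.3 and 20.1 CPM in the input libraries and 200.1, 109 and 28.8 CPM in the positive libraries (log2 difference 2.41, SE 0.55, adjusted p = 0.0119). The positive libraries spread widely yet all exceeded the inputs. Without positive 421 the log2 difference was 1.67 (adjusted p = 0.0136), and the call was lost without input 960 or positive 953 (adjusted p 0.0509 to 0.0518).

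Of the counts of all genes listed for a tissue, collagen genes took 0.5604% ± 0.0511 in choroid input and 0.1942% ± 0.0345 in choroid positive (SD, n = 3). In retina the shares were 0.0613% ± 0.0032 and 0.1484% ± 0.0904, and in brain 0.0355% ± 0.0092 and 0.0488% ± 0.0076. Within the collagen counts the mix of classes changed with the fraction. The basement membrane network made up 8.88% ± 2.44 of them in choroid input and 27.6% ± 8.18 in choroid positive, 26.9% ± 2.81 and 29.7% ± 2.78 in retina, and 13.2% ± 4.02 and 55.07% ± 7.20 in brain. Type VIII took 43.7% ± 5.49 of collagen counts in choroid input and 23.2% ± 6.26 in positive. In retina, fibrillar genes went from 16.6% ± 0.416 to 22.7% ± 1.55. Per kilobase of exon, the basement membrane network held 6.47% and 24.0% of the collagen level in choroid input and positive, 21.7% and 26.8% in retina, and 12.5% and 54.7% in brain. Shares add to 100 within a library, so a class can gain share without gaining level.

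**Figure D3:**
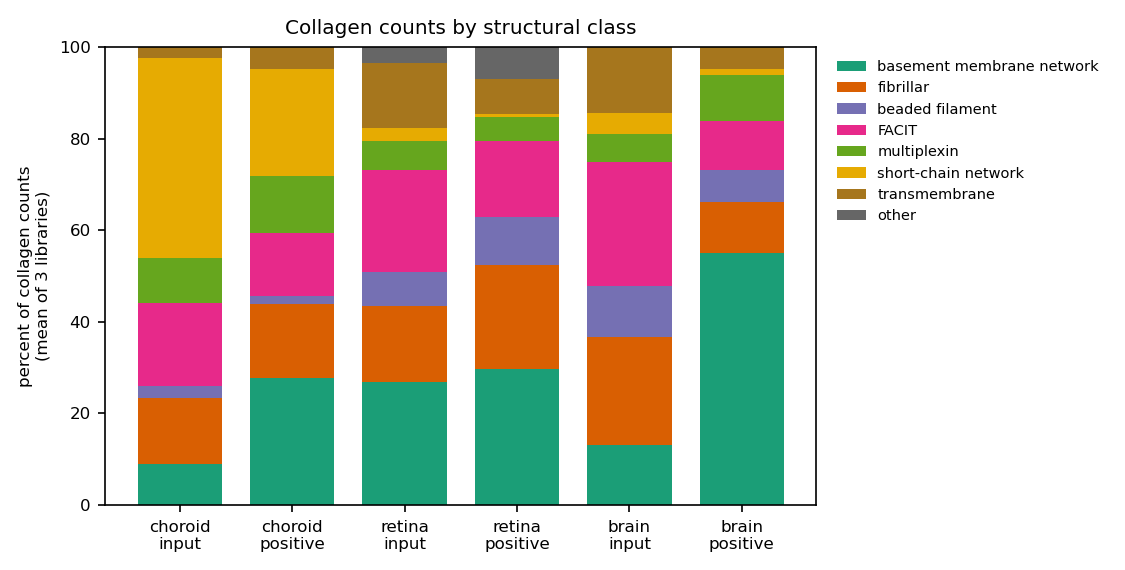
Mean percent of collagen counts (y axis) taken by each structural class in the input and positive libraries of choroid, retina and brain (3 libraries a bar). The basement membrane network is 8.88% of choroid input and 27.6% of choroid positive, 26.9% and 29.7% in retina, and 13.2% and 55.07% in brain.

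The retina positive libraries were not alike. Library 421 was the highest of the 3 for 26 of 27 collagen genes and library 960 the lowest for 26 of 27, while no retina input library was the highest for more than 14. The collagen share of counts was 0.2486% in library 421, 0.1236% in 953 and 0.073% in 960, against 0.058% to 0.0643% in input. Several marker lists differed between the same libraries. The endothelial sum was 2208, 1683 and 1364 CPM, the mural sum over 3 of 9 genes was 423.4, 44.23 and 24.79 (input 25.27 to 27.37), the leukocyte sum was 144.7, 455.7 and 586.9, and the rod photoreceptor sum was 20190, 27110 and 33270 CPM (input 34190 to 35690). The other 6 mural genes, which include Acta2, Tagln and Myh11, were not in the retina table. The part of these cell types in the collagen differences was not tested. Without positive 421, 12 of 27 collagen genes were called higher and 2 lower, with a median log2 difference of 0.73. Without positive 960 the counts were 20 and 0, and without positive 953 they were 7 and 0.

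**Figure D4:**
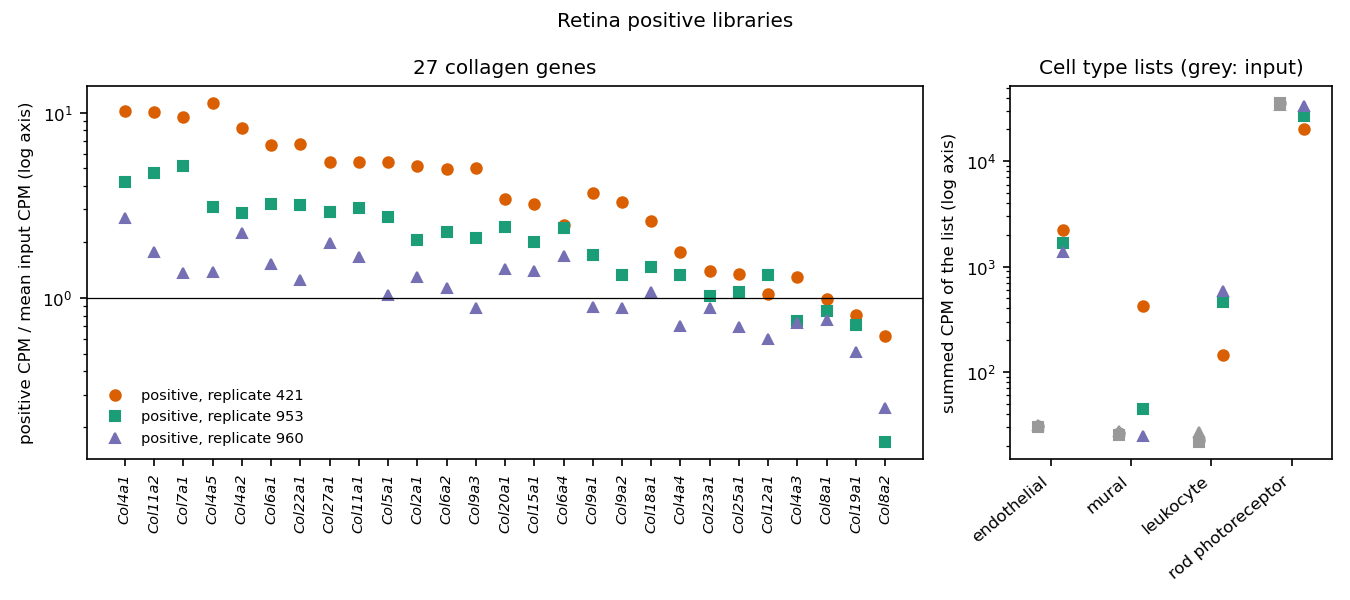
Left, CPM of each of the 27 retina collagen genes (x axis) in each positive library over its mean input CPM (y axis, log scale). Right, summed CPM of 4 cell type lists (y axis, log scale) in input (grey) and positive libraries of retina; marker shapes and colours are the replicates. Replicate 421 is the highest positive library for 26 of the 27 genes, and its mural sum is 423.4 against 44.23 and 24.79.

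Levels in the positive libraries were next compared between tissues, over the 16 collagen genes in all 3 tables and with 9 positive libraries in 1 fit. Between choroid and brain, 10 collagen genes were higher in choroid and 1 lower, where 23.1% and 23.8% of 10505 genes were, 46.8% in all. Between retina and brain, 12 were higher in retina and 0 lower, against 32.1% and 31.0% of genes, 63.0% in all. With edgeR 0 were lower at an unadjusted p under 0.05, and 0 with DESeq2. Between choroid and retina, 5 were higher in choroid and 5 lower, against 32.9% and 39.1%, 72.0% in all. The libraries of the compared tissues did not overlap for 11, 10 and 10 of the 16 genes in these comparisons, where 58.1%, 73.8% and 71.8% of all genes had no overlap, so these counts do not set the collagen genes apart. The comparisons share libraries, so they are not independent of each other. These levels carry what each tissue's lysate holds as well as what the tagged cells hold.

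Type VIII had the largest differences of choroid from both other tissues. On the scale of the 9 positive libraries Col8a2 was at 267, 192 and 415 CPM in choroid, 6.25, 1.69 and 2.56 CPM in retina and 1.88, 2.12 and 3.06 CPM in brain. Its log2 difference was 6.94 ± 0.42 against brain (adjusted p = 5.63e-08) and 6.40 ± 0.43 against retina (adjusted p = 6.76e-08; 7.03 without retina positive 421). Col8a1 gave 5.88 ± 0.18 and 4.96 ± 0.18 (adjusted p = 1.89e-09 and 7.1e-09). Col15a1, at 85.2, 61.8 and 38.3 CPM in choroid, was higher there than in brain (2.14 ± 0.33, adjusted p = 0.000157) and retina (2.39 ± 0.34, adjusted p = 4.12e-05). Retina and brain did not differ in it beyond their spread (-0.25 ± 0.33, adjusted p = 0.524).

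Col20a1 and Col6a1 separated retina. Col20a1 was at 92.0, 65.6 and 38.4 CPM in retina, 1.45, 6.50 and 2.25 CPM in choroid and 2.46, 3.01 and 3.92 CPM in brain. It was higher in retina than in brain by log2 4.38 ± 0.40 (adjusted p = 1.79e-06), and choroid against retina gave -4.28 ± 0.47 (adjusted p = 3.89e-06; -5.21 without choroid positive 953). Col6a1 was at 246, 119 and 56.0 CPM in retina, 15.5, 11.1 and 9.92 CPM in choroid and 13.3, 15.5 and 14.1 CPM in brain, with log2 differences of 3.29 ± 0.41 for retina against brain and -3.49 ± 0.45 for choroid against retina (adjusted p = 2.27e-05 and 1.69e-05). Leaving out retina positive 421 gave 2.61 and -2.81. Choroid against brain gave 0.10 ± 0.52 for Col20a1 (adjusted p = 0.897; -0.07 with scaling to library size alone) and -0.20 ± 0.45 for Col6a1 (adjusted p = 0.741).

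Several genes were ordered retina over choroid over brain. Col23a1 was at 111, 82.3 and 70.1 CPM in retina, 49.4, 47.1 and 30.2 CPM in choroid and 4.81, 4.79 and 6.69 CPM in brain. Each pair of tissues differed in it, with log2 differences of 4.01 ± 0.26 for retina against brain, 2.97 ± 0.25 for choroid against brain and -1.04 ± 0.23 for choroid against retina (adjusted p = 1.39e-07, 9.83e-07 and 0.00146). Col11a1 had the same order, with 3.56 ± 0.37, 1.94 ± 0.40 and -1.62 ± 0.37 (adjusted p = 5.47e-06, 0.00148 and 0.00168). In Col5a1 and Col12a1, retina and choroid were both over brain, by 3.16 ± 0.48 and 2.50 ± 0.50 for Col5a1 and 2.56 ± 0.34 and 2.25 ± 0.36 for Col12a1 (adjusted p = 0.000102, 0.00117, 4.25e-05 and 0.00023). The value of Col5a1 against brain was 2.45 without retina positive 421 (adjusted p = 0.000244), and without retina positive 960 Col5a1 was lower in choroid than in retina (adjusted p = 0.0107). Choroid and retina did not pass in either gene with all libraries (adjusted p = 0.217 and 0.435).

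Col18a1 and Col9a3 were ordered choroid over retina over brain by their means, though the Col9a3 values of retina and brain overlapped. Col18a1 was at 289, 175 and 201 CPM in choroid, 94.0, 54.0 and 39.4 CPM in retina and 34.3, 39.6 and 33.1 CPM in brain. It was higher in choroid than in brain by log2 2.64 ± 0.29 and than in retina by 1.84 ± 0.29 (adjusted p = 9.9e-06 and 8.31e-05), and in retina than in brain by 0.80 ± 0.28 (adjusted p = 0.0237). The call of retina against brain was lost without any 1 of 3 libraries (adjusted p 0.0649 to 0.161). Col9a3 was at 118, 164 and 298 CPM in choroid, 53.5, 22.7 and 9.39 CPM in retina and 7.99, 7.02 and 12.3 CPM in brain, with 4.40 ± 0.54 against brain, 2.77 ± 0.51 against retina and 1.63 ± 0.51 for retina against brain (adjusted p = 2.62e-05, 0.000332 and 0.0137). Leaving out retina positive 421 gave 3.62 against retina, and that of retina against brain was 0.77 and lost its call (adjusted p = 0.144). Col27a1 was the 1 collagen lower in choroid than in brain (-1.08 ± 0.35, adjusted p = 0.0236), a call lost without any 1 of 4 libraries (adjusted p 0.0538 to 0.0861).

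In the fit of 9 positive libraries, Col4a1 and Col4a2 did not pass in any of the 3 comparisons. Over choroid and brain alone, Col4a1 was higher in choroid (log2 difference 1.00, adjusted p = 0.0358). Col4a1 was at 544, 209 and 283 CPM in choroid, 324, 135 and 85.7 CPM in retina and 166, 221 and 122 CPM in brain, and the ranges overlapped. The log2 differences were 1.03 ± 0.45, 0.93 ± 0.45 and 0.10 ± 0.44 for choroid against brain, choroid against retina and retina against brain (adjusted p = 0.075, 0.0765 and 0.858). Without retina positive 421, Col4a1 was higher in choroid than in retina by log2 1.65 (adjusted p = 0.00267) and Col4a2 by 1.38 (adjusted p = 0.00537). Without choroid positive 953, Col4a1 was higher in choroid than in brain (1.29, adjusted p = 0.0488) and retina (1.19, adjusted p = 0.0419). With all libraries, the differences of Col4a2 were 0.92 ± 0.45, 0.59 ± 0.45 and 0.34 ± 0.44 (adjusted p = 0.109, 0.252 and 0.523). With an SE of 0.44, a moderate difference between retina and brain in either direction would not have been detectable.

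The difference of the positive-over-input ratios between tissues was tested as 1 contrast over 18 libraries. In choroid minus retina, 0 of 16 collagen genes were called higher and 12 lower, where 10.9% and 18% of genes were, and 28.8% in either direction. In retina minus brain, 7 were higher and 0 lower, against 8.33% and 4.97% (13.3% in all), and in choroid minus brain 0 were higher and 3 lower, against 12.2% and 12.3% (24.6% in all). For each of these counts of 0, edgeR gave 0 at an unadjusted p under 0.05 and DESeq2 gave 0. Of the 16 genes, 8 had entered the choroid table only through its input libraries, which favours a low choroid ratio: 8 of these 8 and 4 of the other 8 were lower in choroid minus retina. Col6a1, one of the former, had the largest contrast between choroid and retina, -4.11 ± 0.66 on the log2 scale (adjusted p = 0.000259; -3.43 without retina positive 421). Col9a3, Col11a1 and Col6a2 followed with -3.28 ± 0.65, -3.20 ± 0.57 and -3.18 ± 0.61 (adjusted p = 0.00142, 0.000585 and 0.0011). Between retina and brain, Col5a1 had the largest, 3.18 ± 0.60 (adjusted p = 0.00271; 2.48 without retina positive 421). Col4a1, Col4a2 and Col15a1, the genes higher in every tissue, were called in none of the 3 contrasts, with adjusted p from 0.345 to 0.98. For Col4a1 the contrasts were -0.91 ± 0.68 for choroid minus brain, -0.76 ± 0.68 for choroid minus retina and -0.15 ± 0.68 for retina minus brain, so their intervals are too wide to show that the tissues are alike.

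**Figure D5:**
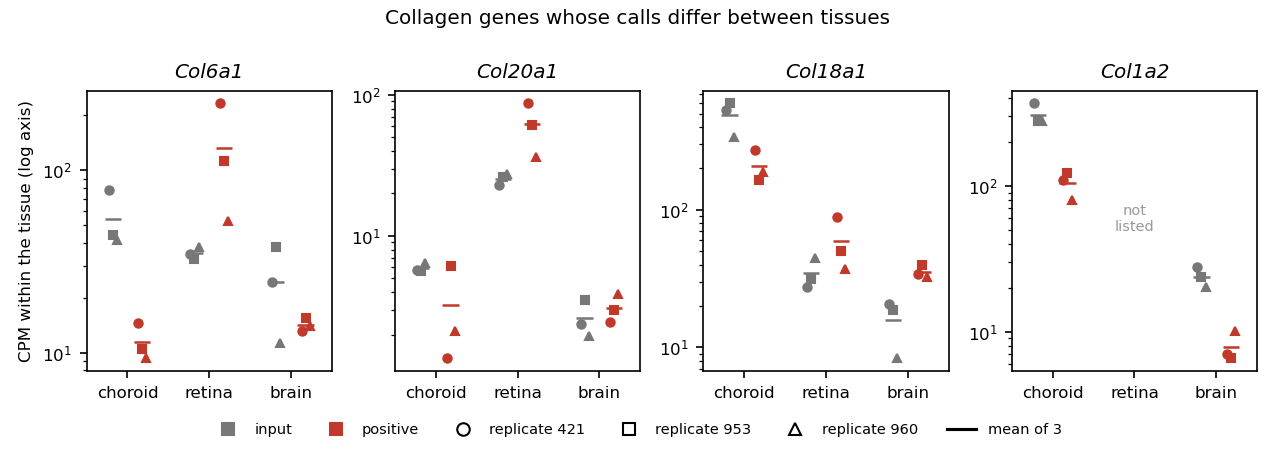
CPM within the tissue (y axis, log scale) of Col6a1, Col20a1, Col18a1 and Col1a2 in input (grey) and positive (red) libraries; marker shapes are the replicate numbers and bars the means of 3. Col6a1 is lower in positive libraries in choroid and higher in retina, Col18a1 lower in choroid and higher in brain, and Col1a2 lower in choroid and brain. Col6a1 entered the choroid table through input only, which favours a lower value there.

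Genes that build, process, bind and degrade collagen were read from 4 lists. Of 20 genes for assembly in the endoplasmic reticulum, 4 of 17 measured were higher and 1 lower in choroid, 8 of 17 higher and 0 lower in retina (0 lower at an unadjusted p under 0.05, and 0 with DESeq2), and 10 of 18 higher and 1 lower in brain. Of all genes, 21.1% were higher and 20.9% lower in choroid, 18% and 13.7% in retina and 21.2% and 18.3% in brain, so the choroid count of higher assembly genes was near the background. With the block the counts were 5 and 3 in choroid, 9 and 0 in retina and 9 and 1 in brain. Crtap, part of the prolyl 3-hydroxylation complex, was higher in all 3 tissues, with log2 differences of 1.15 ± 0.15, 3.12 ± 0.24 and 3.62 ± 0.18 in choroid, retina and brain (adjusted p = 0.000593, 2.41e-05 and 4.12e-05). Serpinh1, the collagen chaperone HSP47, gave 0.40 ± 0.16 (adjusted p = 0.0768; called higher with the block, adjusted p = 0.0239), 2.72 ± 0.24 (adjusted p = 5.55e-05) and 2.89 ± 0.23 (adjusted p = 0.000135). Plod1 and Plod3, lysyl hydroxylases, were higher in all 3 tissues, Plod1 by 1.25 ± 0.28, 0.76 ± 0.17 and 1.47 ± 0.25 and Plod3 by 0.85 ± 0.19, 1.13 ± 0.23 and 1.83 ± 0.16 in choroid, retina and brain. With DESeq2 Serpinh1 was also called in choroid. In choroid the median over the list was 0.29, in retina 0.62 and for brain 0.70.

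Of 15 genes for processing and crosslinking, 0 of 12 were called higher by edgeR (0 at an unadjusted p under 0.05, and 0 with DESeq2) and 5 lower in choroid, 1 of 10 higher and 1 lower in retina, and 2 of 11 higher and 4 lower in brain. The shares over all genes were 21.1% higher and 20.9% lower in choroid, 18% and 13.7% in retina and 21.2% and 18.3% in brain. Both retina counts and the 2 higher in brain were near those shares. Pcolce, an enhancer of procollagen cleavage, was lower in choroid (-1.75 ± 0.16, adjusted p = 0.000161) and brain (-1.25 ± 0.24, adjusted p = 0.00627). Loxl1, a lysyl oxidase, was lower in choroid (-1.90 ± 0.15, adjusted p = 0.000112). Sparc, a collagen-binding matrix protein, was higher in retina (1.31 ± 0.10, adjusted p = 2.41e-05) and brain (1.31 ± 0.18, adjusted p = 0.00176), with 0.42 ± 0.23 in choroid (adjusted p = 0.163; 0.0232 with the block). With the block, 1 gene of this list was higher and 9 lower in choroid, and 3 higher in retina.

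Of 10 collagen receptors, 2 of 6 were higher and 3 lower in choroid, 4 of 5 higher and 1 lower in retina, and 3 of 6 higher and 1 lower in brain. With the block 4 were lower in choroid and 0 in brain. The shares over all genes were 21.1% higher and 20.9% lower in choroid, 18% and 13.7% in retina and 21.2% and 18.3% in brain. With so few genes, the 2 higher in choroid and the 1 lower in retina and in brain were near those shares. Itga1, the collagen-binding integrin alpha chain, was higher in retina (4.70 ± 0.34, adjusted p = 1.64e-05) and brain (3.55 ± 0.32, adjusted p = 0.000231). Its partner Itgb1 was higher in all 3 tissues (1.22 ± 0.24, 1.83 ± 0.17 and 2.24 ± 0.23, adjusted p = 0.00413, 9.21e-05 and 0.000439). Lair1, a collagen receptor of leukocytes, was also higher in all 3 (2.03 ± 0.32, 1.48 ± 0.25 and 3.24 ± 0.23, adjusted p = 0.0015, 0.00274 and 8.15e-05), beside the higher leukocyte markers given above. Ddr1, a receptor tyrosine kinase for collagen, was lower in each tissue (-1.88 ± 0.35, -0.59 ± 0.14 and -1.15 ± 0.31, adjusted p = 0.00328, 0.0122 and 0.023), and the block ended the brain call (adjusted p = 0.0734). Leaving out 1 library ended the retina call for Ddr1 (without input 421 or 960 or positive 953) and the brain call (without input or positive 421 or 953), with adjusted p of up to 0.0629 and 0.0932.

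Of 10 genes for collagen degradation, 1 of 7 was higher and 1 lower in choroid, 1 of 5 higher and 1 lower in retina, and 3 of 5 higher and 0 lower in brain (0 lower at an unadjusted p under 0.05, and 0 with DESeq2). In choroid and retina these counts were near the shares of all genes given above, and with the block 2 were lower in choroid. Timp3, a metalloproteinase inhibitor of the extracellular matrix, was higher in retina (1.40 ± 0.22, adjusted p = 0.00181) and brain (2.27 ± 0.25, adjusted p = 0.000621), and in choroid it had a value of -0.33 ± 0.23 (adjusted p = 0.27). Fap, a protease of activated fibroblasts, was lower in choroid (-1.87 ± 0.35, adjusted p = 0.00375), and Mmp14, a membrane-bound collagenase, was higher there (0.66 ± 0.21, adjusted p = 0.0339), a call lost without input or positive 953 or 960 (adjusted p up to 0.134).

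Collagen transcripts are long, with a median exon length of 7021 bases in the choroid table where all genes with a length had 4639. Other genes between the quartiles of the collagen lengths had median log2 differences of -0.15 in choroid, -0.06 in retina and -0.14 in brain. The part of length in the collagen differences was not tested.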

How the data were processed

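RNA-seq libraries of input and tagged-ribosome (positive) fractions of choroid, retina and brain were prepared with a directional kit, per the labels' protocols. Per the file headers, the authors' deposited tables hold raw values, which are expected counts (72.0% to 91.5% of values are not whole), beside values normalized on a log2 scale, which were not used in any test. Per the submitters' processing notes the build was mm10 and DESeq was used; which aligner and counter made the values is not given in the sources used here. Listing required a raw value of 50 or more in each library of 1 or both fractions, which every listed gene met.

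The expected counts were rounded and tested with edgeR 4.0.16 (R 4.3.3): quasi-likelihood F test, TMM scaling, filterByExpr and Benjamini-Hochberg adjustment over all genes, called at an adjusted p under 0.05. Enrichment used 6 libraries of 1 tissue, positive libraries were compared between tissues in 9 libraries, and differences of enrichment were tested in 18, the last 2 over the 10505 genes in all 3 tables. SE is the log2 difference divided by the square root of F. The scripts were tested on simulated data. DESeq2 1.42.0, scaling to library size alone, a minimum of 50 counts, other sets of libraries and leaving out each library were alternatives. The precision of a value follows from the library totals given above and from 3 libraries a group.

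Input was set aside from the lysate that gave the positive fraction, per the labels' protocols, so equal numbers within a tissue pair libraries. Deviations of equal-numbered libraries from their group means correlated at 0.632, 0.268 and 0.527 in choroid, 0.087, 0.066 and 0.008 in retina and 0.189, 0.034 and 0.089 in brain. Blocked values are given beside each collagen gene and each list gene described whose call they change, and as counts for the lists.

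The collagen genes, their classes and the pathway and marker lists were chosen with earlier results of these data known. Values in every library are given for Col4a1, Col1a2, Col20a1 and up to 4 genes of the highest mean level in each class. From a pathway list, the text may name the 4 called genes of smallest adjusted p and the 2 uncalled genes of highest level in a tissue. Upstream sequences come from RefSeq (GRCm38.p6), which matched 30 of the 38 genes. Gene starts are those of the authors' deposited tables, and exons and exon lengths come from the GENCODE annotation of mm10. An exon length counts each base that lies in any annotated exon of the gene, and levels per kilobase use it.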

Additional observations from a re-analysis of the deposited data

Results flagged for a closer look

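For 16 collagen genes the positive-over-input ratio could be set against that of another tissue, and 22 differences of log2 ratios passed the edgeR test of the difference itself (adjusted p under 0.05). Of all 10505 genes, 28.8% passed in choroid minus retina, 13.3% in retina minus brain and 24.6% in choroid minus brain. The 3 contrasts share libraries, so the 22 are not independent of each other. Groups of 3 libraries were too small for a test of outlying samples.

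Choroid minus retina gave 12 of these, all below 0. Col6a1 was at -4.11, Col9a3 at -3.28, Col11a1 at -3.20, Col6a2 at -3.18, Col5a1 at -2.60 and Col27a1 at -2.54. Col9a2 was at -2.31, Col20a1 at -2.16, Col12a1 at -2.14, Col8a1 at -1.99, Col18a1 at -1.96 and Col23a1 at -1.65. Col9a3, Col8a1, Col18a1 and Col23a1 had entered the choroid table through both fractions and the other 8 through input only, which favours this direction. They include filament, fiber-coating, fibrillar and membrane collagens. Col20a1 was at -3.05 without choroid positive 953. Without retina positive 421, the library with the raised mural sum, Col5a1 was at -1.89, Col6a1 at -3.43, Col6a2 at -2.46, Col9a3 at -2.44 and Col9a2 at -1.58, and without choroid input 953 Col9a2 was at -1.71. The Col9a2 call was lost without any 1 of 5 libraries (adjusted p 0.0562 to 0.105).

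Retina minus brain gave 7, all above 0. Col5a1 was at 3.18, Col9a3 at 3.00, Col6a1 at 2.87, Col11a1 at 2.79, Col6a2 at 2.58, Col12a1 at 1.67 and Col23a1 at 1.60. Without retina positive 421, Col5a1 was at 2.48, Col6a1 at 2.18, Col6a2 at 1.87 and Col9a3 at 2.15, and the Col12a1 call was lost without any 1 of 8 libraries (adjusted p 0.0504 to 0.0785).

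Choroid minus brain gave 3, Col18a1 at -2.19, Col27a1 at -1.32 and Col8a1 at -1.15. The Col27a1 call was lost without any 1 of 6 libraries (adjusted p 0.0545 to 0.0728).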

How the results depend on the processing

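Counts of called collagen genes fell with fewer genes tested. With at least 50 counts in every library (15, 24 and 17 collagen genes in choroid, retina and brain), 10 were lower in choroid, 0 lower in retina and 4 higher in brain. Between positive libraries (6 tested) 4 were higher and 0 lower for choroid against brain, 3 higher for retina against brain, and 3 higher and 1 lower for choroid against retina. Of 5 tested differences 1 was lower for choroid minus brain, 2 higher for retina minus brain and 3 lower for choroid minus retina. With 18 libraries in 1 fit (16 tested), 10 were lower in choroid, 9 higher in retina and 4 higher in brain. With only 2 tissues, 16 of 22 were higher for choroid against brain, 9 of 21 lower for choroid against retina, and 5 of 22 lower for the difference choroid minus brain. DESeq2 gave 2 lower in retina, as did the replicate block. The cause was not tested where the number tested stayed equal. Other settings kept each count within 1.5 times.

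Leaving out 1 library gave 2 to 4 higher and 16 to 20 lower in choroid. For retina it gave 7 to 20 higher and 0 to 2 lower, for brain 4 to 7 higher and 7 to 15 lower. Between positive libraries it gave 9 to 11 higher and 0 to 1 lower for choroid against brain, 9 to 12 higher for retina against brain, and 5 to 7 higher and 5 to 7 lower for choroid against retina. Differences gave 2 to 4 lower for choroid minus brain, 6 to 10 higher for retina minus brain and 11 to 12 lower for choroid minus retina. Without both choroid 421 libraries, a choice made after seeing the data, 4 were higher and 17 lower in choroid.

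No called value changed sign in these settings. Uncalled values that did were Col20a1 for choroid against brain positive (-0.07 with library-size scaling), Col4a1 for retina against brain positive (-0.12 with the block), and for retina minus brain Col15a1 (-0.01 with DESeq2, -0.04 with library-size scaling, -0.08 with the block, -0.26 with 2 tissues) and Col4a2 (-0.21 with the block, -0.16 with 2 tissues). With 1 library left out the log2 ranges crossed 0 in retina for Col12a1 (-0.27 to 0.27), Col4a3 (-0.43 to 0.11), Col4a4 (-0.00 to 0.66), Col8a1 (-0.37 to 0.10), Col23a1 (-0.07 to 0.30) and Col25a1 (-0.20 to 0.30). They did so for Col20a1 in choroid against brain positive (-0.83 to 0.57), for Col15a1 (-0.63 to 0.02), Col4a1 (-0.62 to 0.44) and Col4a2 (-0.45 to 0.66) in retina against brain positive, for Col15a1 (-0.35 to 0.28), Col4a1 (-0.87 to 0.19) and Col4a2 (-0.66 to 0.45) in retina minus brain, and for Col4a2 in choroid minus retina (-1.0 to 0.20).

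Scaling to library size alone shifted the median of all genes by -0.23 in choroid enrichment, where 34.5% of called genes were then higher and 4 collagen genes were higher and 20 lower. Across tissues equal numbers are only a shared number. The replicate block between positive libraries used that number and added Col4a1 for choroid against brain and choroid against retina (11 and 6 higher, adjusted p = 0.0295 and 0.00932). For differences of enrichment the block paired input with positive within each tissue instead. That block added Col9a2 for retina minus brain (8 higher, adjusted p = 0.00943). Neither block changed another call between tissues. Choroid positive libraries had the fewest counts, so low genes there (Col20a1) are the least precise.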
